A study of Mus musculus with 40 samples.

Results

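Heat shock proteins and their partners are molecular chaperones: proteins that help other proteins fold, hold unfolded proteins until they can be refolded, or pass them on for degradation. A list of 44 such genes of the cytosol, the nucleus and the mitochondrion was followed here in the mouse heart. It held 2 heat shock factors, 7 small heat shock proteins, 9 members of the Hsp70 and Hsp110 family, 10 Hsp40 (J-domain) proteins, 3 BAG cochaperones of Hsp70, 3 members of the Hsp90 family, 4 cochaperones of Hsp90 and 6 chaperonin subunits. A probe of the array was annotated to 41 of the 44 genes, against 16593 genes with a probe in the whole table. Hsf1, Hspa1b and Hsp90ab1 had none. The probe with the highest mean intensity stood for a gene. Hspa14 and Dnaja1 were too dim to be tested, which left 39 of the 44 genes, among 8749 tested genes.

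The hearts came from 40 male C57BL/6J mice, 9 weeks old, in 4 groups of 10 that crossed what the dam ate with what her sons ate from weaning on. LF was a low fat, high carbohydrate diet and HF a high fat diet based on coconut oil. In group names the dam comes before the offspring, and LF_HF means HF-fed offspring of LF dams. The dams ate their diet from before mating until weaning, their litters filled 6 cages for each diet of the dam, and hearts of the same cage are not independent of each other. Sons of 5 cages were split over both diets (23 hearts, 12 HF-fed and 11 LF-fed). All animals shared sex and strain, were fasted before the hearts were taken, and carried no altered allele.

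Which parts of the heart each sample held was not stated, and in bulk tissue a lower level of a transcript cannot be told apart from fewer cells that make it. The cardiomyocyte markers were bright, with 9 of 10 on the array and group medians of their score between -0.06 and 0.02 (a score is the mean log2 distance from the 40-heart median over the list). The atrial markers, all 8 with a probe, had a score that ran from -3.13 to 1.52. Its medians were -2.04 and -0.77 in LF_LF and LF_HF hearts and higher, at 0.85 and 0.21, in HF_LF and HF_HF hearts. The groups overlapped, from -3.13 to 1.33 in LF_LF and from -2.80 to 1.52 in HF_LF hearts. Of these markers 7 were tested, and none passed for the diet of the dam (limma, adjusted p = 0.328 or more). Averaged over the offspring's diets all 7 were higher at an unadjusted p below 0.05. Of the 40 hearts, 13 carried signal of pancreas, liver, skeletal muscle or adipocytes (a score above 1.5), 3 in each of LF_LF, LF_HF and HF_HF and 4 in HF_LF. The dim probes, which were not tested, split the arrays into 25 and 15, called batch 1 and batch 2 here although no label names a batch. Batch 1 took 5 of the 10 LF_LF hearts, 7 each of LF_HF and HF_LF, and 6 of HF_HF. The part of any of these in the results was not tested beyond the values given beside them.

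Heat-inducible chaperone genes are switched on by heat shock factor 1, which binds inverted repeats of the bases GAA, called heat shock elements, in front of them. In the unstressed heart several chaperones are abundant without any heat shock, above all small heat shock proteins such as Cryab and Hspb6, which sit on the contractile apparatus. Promoter sequence of RefSeq (GRCm38.p6, 250 bases before to 50 after each start) was at hand for 36 of the 44 genes, and not for Cryab, Dnajc5, Hsf1, Hsp90aa1, Hsp90ab1, Hspa8, Hspa9 and Hspb2. A match to 2 adjoining repeats (GAANNTTC or TTCNNGAA, each its own reverse complement) was present in 18 of the 36, and in 17% of the 27025 genes with such a window. A match to 3 adjoining repeats (GAANNTTCNNGAA or TTCNNGAANNTTC, which are each other on the opposite strand and contain the shorter match) was present in 5 of the 36: Hspd1, Hspe1, Hsph1, Chordc1 and Dnajb6. The share of all genes was 0.662%. A match describes letters and not binding.

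The stretches that follow belong to genes on which the results below turn, with the matches in capitals. Hspe1 and Hspd1, the mitochondrial chaperonin pair, stand head to head on chromosome 1 with 215 bases between their starts, and share the run of repeats at chr1:55087933-55088147, printed on the strand of Hspe1. Hsph1 is shown just before its start (chr5:149636316-149636375, minus strand) and just after it (chr5:149636279-149636308, minus strand). Hspb1 (chr5:135887789-135887838, plus strand), Dnaja4 (chr9:54699454-54699518, plus strand) and Hspa1a (chr17:34972237-34972276, minus strand) are shown for the part of the promoter that holds their matches.
Hspe1 and Hspd1, between the starts: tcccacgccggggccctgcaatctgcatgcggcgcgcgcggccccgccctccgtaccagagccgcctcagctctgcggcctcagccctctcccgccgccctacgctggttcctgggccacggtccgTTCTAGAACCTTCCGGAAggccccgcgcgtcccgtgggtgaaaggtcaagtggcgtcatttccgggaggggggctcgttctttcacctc
Hsph1, before the start: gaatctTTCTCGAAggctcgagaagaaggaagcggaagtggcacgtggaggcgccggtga
Hsph1, after the start: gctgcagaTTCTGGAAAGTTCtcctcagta
Hspb1: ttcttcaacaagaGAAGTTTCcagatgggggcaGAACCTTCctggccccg
Dnaja4: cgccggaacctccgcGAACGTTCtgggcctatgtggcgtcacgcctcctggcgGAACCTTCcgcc
Hspa1a: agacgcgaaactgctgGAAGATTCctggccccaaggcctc

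The high fat diet after weaning went with higher levels of part of the chaperone genes, led by Hsph1 and Hspb1, whichever diet the dam had eaten. Averaged over the diets of the dam, 11 of the 39 tested genes rose in HF-fed hearts (limma, adjusted p below 0.05 over all 12645 tested probes): Hsph1, Hspb1, Hspb8, Hspd1, Bag2, Fkbp4, Cryab, Ahsa1, Hspa4l, Dnaja4 and Hspb6. Hspa2 and Trap1 fell. Of all tested probes 3.53% rose and 3.96% fell in this comparison. The changes were small. The median log2 fold change of the 39 genes was 0.11, against 0.0004 over all tested probes, and the range was -0.18 to 0.50. At an unadjusted p below 0.05, 21 of the 39 genes were higher and 3 lower, against 11.5% and 12.3% of all probes. The 13 calls came to 2 when the hearts with other-tissue signal were dropped, to 6 on cage means and to 0 within batch 2 (Hsph1 and Hspb1 were the 2). Within the 5 cages that held both diets 3 genes passed, Hsph1, Stip1 (0.23, adjusted p = 0.0283) and Chordc1 (0.27, adjusted p = 0.0114), with a median of 0.12 over the 39 genes. These counts from smaller fits are not set against the calls over all probes in the same fits. Among 9 tested markers of skeletal muscle, Acta1, the skeletal actin that the heart makes as well, rose in the averaged comparison (0.87, SE 0.190, adjusted p = 0.00295), and the other 8 lay between 0.01 and 0.27 and did not pass. The part of the skeletal muscle markers in the chaperone differences was not tested beyond dropping the hearts with other-tissue signal.

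In offspring of LF dams 5 genes rose and 0 fell: Hsph1, Dnaja4, Hspb1, Stip1 and Ahsa1. Of all probes 1.29% rose and 1.43% fell. This count hung on single hearts and ran from 2 to 12 when each was dropped in turn, with 0 calls when those with other-tissue signal were dropped. Without the hearts with other-tissue signal 6 of the 12645 tested probes rose and 2 fell, against 163 and 181 with all 20 hearts. The median over the 39 genes was 0.15, and 31 lay above 0. At an unadjusted p below 0.05, 21 were higher and 2 lower, against 10.7% and 11.1% of all probes. In offspring of HF dams 2 genes rose, Hsph1 and Hspb1, and 0 fell, against 0.482% and 0.38% of all probes. Here the median was 0.05, 29 genes lay above 0, and 8 were higher and 2 lower at an unadjusted p below 0.05, against 4.37% and 3.86%. These 2 comparisons share no hearts, while the averaged comparison is built from the same 40. Cirbp and Rbm3, RNA-binding proteins known to be induced by mild cold, fell as the chaperones rose and are described further on.

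**Figure D1:**
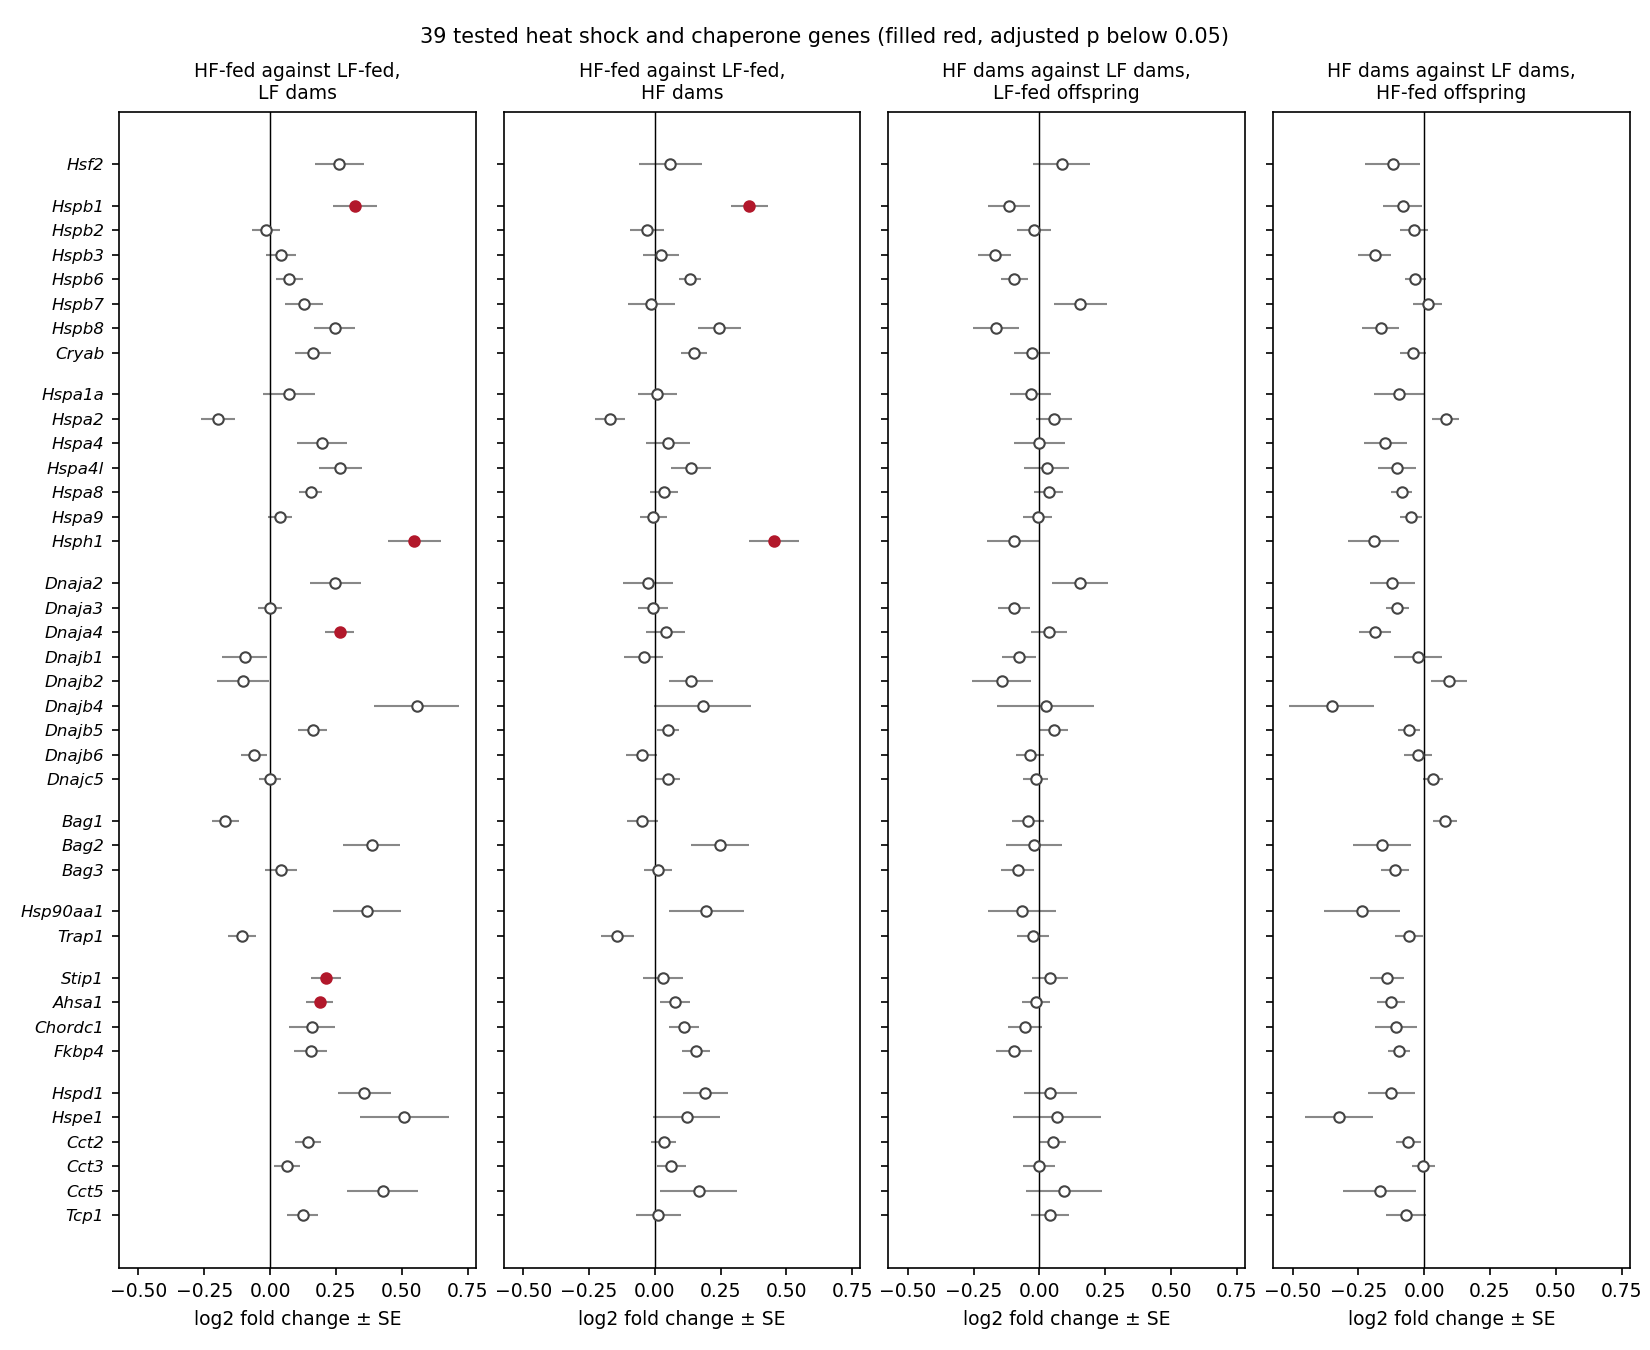
Log2 fold change with its standard error (x axis) of the 39 tested genes (y axis) in the 4 pairwise comparisons of 10 against 10 hearts. Filled red points passed an adjusted p of 0.05: 5 genes for the post-weaning diet in offspring of LF dams, 2 in offspring of HF dams and 0 in either comparison of the dams.

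Hsph1, the large Hsp110 relative of Hsp70 that recharges Hsp70 with ATP by nucleotide exchange, rose in both pairwise comparisons. Its intensity ran from 371 over a median of 534 to 659.8 in LF_LF hearts and from 552 over 775 to 993 in LF_HF hearts. In HF_LF hearts it ran from 366 over 515 to 590.1, and in HF_HF hearts from 544 over 643 to 848. In offspring of LF dams 9 of the 10 HF-fed hearts lay above every LF-fed heart, and 7 of 10 did in offspring of HF dams. The log2 fold change was 0.55 (SE 0.102, adjusted p = 0.00728) in the former, a 1.46-fold difference, and 0.45 (SE 0.0944, adjusted p = 0.0173) in the latter, a 1.37-fold difference. Averaged over the dams it was 0.50 (SE 0.0714, adjusted p = 7.26e-06), with all 20 HF-fed hearts above the LF-fed median. Within batch 1 the averaged difference was 0.64 (adjusted p = 0.000131) and within batch 2 it was 0.31 (adjusted p = 0.456). When the 13 hearts with other-tissue signal were dropped it was 0.46 (adjusted p = 0.00340), but neither pairwise comparison then passed for Hsph1 (0.48, adjusted p = 0.113, and 0.43, adjusted p = 0.369). With cage means in place of hearts the differences were 0.54 in both pairwise comparisons and neither passed (adjusted p = 0.172 and 0.115). Within cages holding both diets they were 0.51 (10 hearts) and 0.48 (13 hearts) and did not pass (adjusted p = 0.171 and 0.142), while the averaged 0.50 did (adjusted p = 0.00207). The call was also lost when cage 4 or cage 11 was left out in offspring of LF dams (adjusted p = 0.0517 and 0.0623) and without cage 12, 20 or 21 in those of HF dams (adjusted p = 0.0512, 0.0647 and 0.136).

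The strictly heat-inducible Hsp70, Hspa1a, did not pass in any comparison. Its probe was dim, with intensities between 79.8 and 142.9 against an array median of 79.3, and it shares much of its sequence with Hspa1b, so the copies may not be told apart. The median was 99.0 (LF_LF), 104 (LF_HF), 101 (HF_LF) and 96.7 (HF_HF), and the groups overlapped over most of their range. The log2 fold change with the HF diet was 0.07 in offspring of LF dams (SE 0.0986, adjusted p = 0.691) and 0.01 in offspring of HF dams (adjusted p = 0.996). Within cages holding both diets Hspa1a differed by 0.17 and 0.21, and by 0.19 averaged. None of these passed (adjusted p = 0.589, 0.525 and 0.296). The test missed its threshold for Hspa8, the constitutive Hsp70 (Hsc70), at 0.15 in offspring of LF dams (SE 0.0435, adjusted p = 0.0547), 0.04 in offspring of HF dams and 0.10 averaged (adjusted p = 0.0822). All 10 LF_HF hearts had a Hspa8 intensity above the LF_LF median, between 16764 and 18714, and 0 of them lay above the highest LF_LF heart. A second Hspa8 probe correlated weakly with the first over the hearts (r = 0.23) and differed by 0.07 averaged over the dams.

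In the same family Hspa4l rose and Hspa2 fell. Hspa4l, another Hsp110 relative, had a median of 104 (LF_LF), 119 (LF_HF), 103 (HF_LF) and 112 (HF_HF), and the averaged log2 fold change was 0.20 (SE 0.0572, adjusted p = 0.0234). The Hspa4l probe was dim, at a geometric mean of 108 against an array median of 79.3. Its call was lost within either batch, on cage means, without the hearts with other-tissue signal and within cages holding both diets. Hspa2, an Hsp70 best known from the testis, had medians of 305, 267, 327 and 290.2 in the same order. All 20 HF-fed hearts lay below the LF-fed median, and the averaged log2 fold change was -0.18 (SE 0.0422, adjusted p = 0.00462), while a dimmer second probe differed by -0.06. Hspa4 and the mitochondrial Hspa9 did not pass (0.12 and 0.02).

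**Figure D2:**
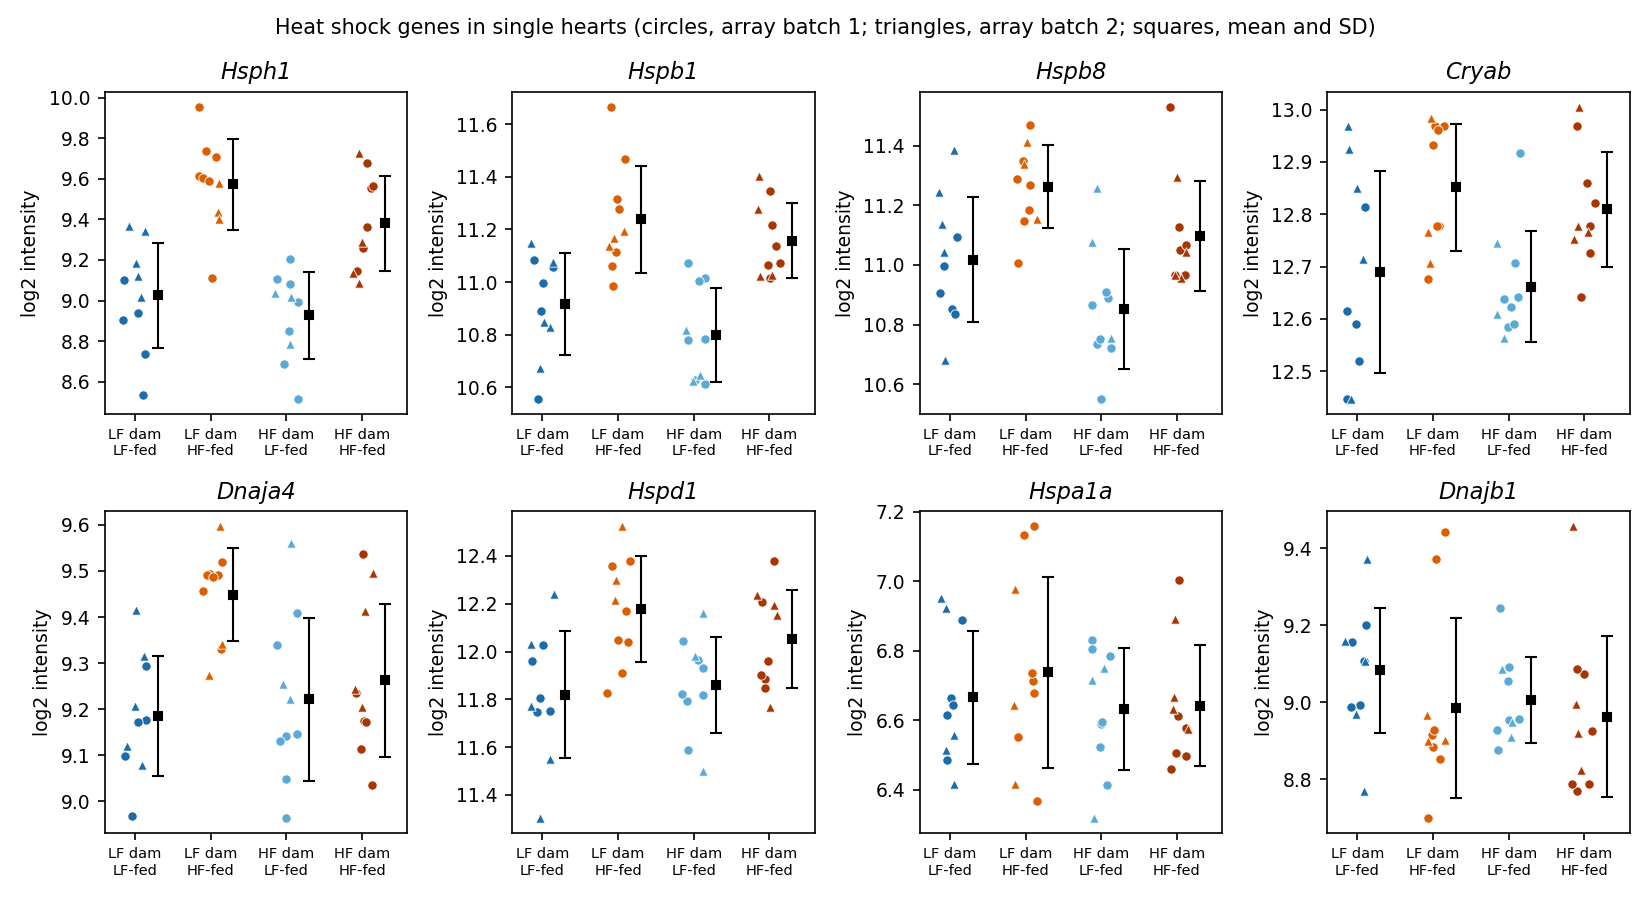
Log2 intensity (y axis) of 8 chaperone genes in single hearts by group (x axis, diet of the dam and diet after weaning), with circles for batch 1, triangles for batch 2 and squares with bars for the mean and SD of 10 hearts. Hsph1 and Hspb1 stand higher in both HF-fed groups, Dnaja4 in LF_HF, and Hspa1a and Dnajb1 overlap across all 4 groups.

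Small heat shock proteins hold unfolded proteins without using ATP, and 4 of the 7 rose with the HF diet averaged over the dams. The median over the 7 genes was 0.10. Hspb1 (Hsp25 in the mouse, which also acts on actin) had intensities from 1506 over a median of 1969.6 to 2271 in LF_LF hearts and from 2027 over 2321 to 3249.9 in LF_HF hearts. In HF_LF hearts it ran from 1564 over 1760.3 to 2156, and in HF_HF hearts from 2067 over 2201 to 2706. Each HF-fed heart lay above the LF-fed median of the same dam group, and 6 and 5 of the 10 HF-fed hearts lay above every LF-fed heart. The log2 fold change was 0.32 (SE 0.0838, adjusted p = 0.0408) in offspring of LF dams, 0.36 (SE 0.0702, adjusted p = 0.0115) in offspring of HF dams, and 0.34 (SE 0.0557, adjusted p = 5.88e-05) averaged, a 1.27-fold difference. The averaged difference was 0.33 within batch 1 (adjusted p = 0.0122) and 0.37 within batch 2 (adjusted p = 0.204). When the 13 hearts with other-tissue signal were dropped it was 0.40 (adjusted p = 0.000646) and 0.45 in offspring of HF dams (adjusted p = 0.0430), but the 0.36 in those of LF dams did not pass (adjusted p = 0.164). On cage means Hspb1 passed averaged over the dams (0.36, adjusted p = 0.00409) and in neither pairwise comparison (adjusted p = 0.147 and 0.128). Within cages holding both diets it was 0.32 averaged and did not pass (adjusted p = 0.0546). With 1 cage left out the call of Hspb1 was lost for 5 of the 6 cages in offspring of LF dams (adjusted p up to 0.151). In those of HF dams it was lost for 3 of the 6 (adjusted p up to 0.0687).

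Hspb8, Cryab and Hspb6 were measured with smaller differences. Hspb8 works with Bag3 in clearing damaged filament proteins, and had medians of 2077 (LF_LF), 2483 (LF_HF), 1797 (HF_LF) and 2117 (HF_HF). The averaged log2 fold change of Hspb8 was 0.25 (SE 0.0571, adjusted p = 0.00522) and nearly equal in the 2 groups of dams (0.24 and 0.25), neither of which passed alone (adjusted p = 0.0764 and 0.249). Cryab (alphaB-crystallin), which protects desmin and titin, had medians of 6498, 7423, 6338 and 7025 in the same order. All 20 HF-fed hearts lay above the LF-fed median for Cryab, and the averaged log2 fold change was 0.16 (SE 0.0428, adjusted p = 0.0190). Hspb6 (Hsp20) lay at 15906 to 23019, in the upper part of a scale that ended at 31454, and rose, its averaged log2 difference being 0.10 (SE 0.0333, adjusted p = 0.0473). The call of Hspb6 was lost with all probes tested, under cyclic loess normalization and without the variance trend. It was also lost within either batch, on cage means, without the hearts with other-tissue signal and within cages holding both diets. Hspb2, Hspb3 and Hspb7 did not pass, with averaged differences between -0.02 and 0.06.

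The Hsp40 proteins deliver substrates to Hsp70 and trigger its ATPase, and 1 of the 9 tested genes passed averaged over the dams, where their median was 0.02. That gene was Dnaja4, a J-domain partner of Hsp70 in the cytosol. Its intensity ran from 501 over a median of 578 to 683 in LF_LF hearts and from 619 over 719 to 775 in LF_HF hearts, where 7 of 10 lay above every LF_LF heart. In HF_LF hearts it ran from 499 over 582 to 755 and in HF_HF hearts from 525 over 596 to 743, with the groups overlapping almost wholly. The log2 fold change was 0.26 (SE 0.0536, adjusted p = 0.0119) in offspring of LF dams and 0.04 (adjusted p = 0.969) in offspring of HF dams. The interaction of the diets, which tests that difference itself, was -0.22 (SE 0.0921, unadjusted p = 0.0201) and did not pass the adjustment (adjusted p = 0.943). Within cages holding both diets Dnaja4 differed by 0.19 in offspring of LF dams and 0.17 in those of HF dams, with an interaction of -0.02, and none of these passed (adjusted p = 0.224, 0.581 and 0.997). Leaving out a cage ended the call of Dnaja4 in offspring of LF dams for 4 of the 6 cages.

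Dnajb1, the main heat-inducible Hsp40, did not pass in any comparison. Its median was 552 (LF_LF), 481 (LF_HF), 497 (HF_LF) and 485 (HF_HF), and the log2 fold change was -0.10 (SE 0.0855, adjusted p = 0.517) in offspring of LF dams and -0.04 (adjusted p = 0.968) in those of HF dams. Within cages holding both diets the sign of Dnajb1 turned, to 0.14 and 0.10, with 0.12 averaged. None of these passed (adjusted p = 0.471, 0.827 and 0.417). Dnajb4 had the highest fold change of all 39 genes in offspring of LF dams, 0.56, but its hearts spread widely (SE 0.162) and it did not pass (adjusted p = 0.0637). A second tested Dnajb4 probe differed by -0.05 averaged over the dams, against 0.37 for the probe used. The other 6 tested genes of the class lay between -0.06 and 0.11 in the averaged comparison.

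Among the BAG cochaperones, which release the substrate from Hsp70, Bag2 rose with the HF diet averaged over the dams (0.32, SE 0.0800, adjusted p = 0.00991). Bag2 medians were 202 (LF_LF), 251 (LF_HF), 191 (HF_LF) and 225 (HF_HF). Bag1 and Bag3 did not pass (-0.11 and 0.03).

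Hsp90 completes the folding of kinases and steroid receptors, and is itself steered by cochaperones. Hsp90aa1, its inducible form, was dim, with medians of 98.7 (LF_LF), 133 (LF_HF), 92.7 (HF_LF) and 105 (HF_HF). The hearts of a group spread widely, with an SD of 0.28 to 0.42 on the log2 scale, and the difference did not pass (0.28 averaged, SE 0.101, adjusted p = 0.0762). Trap1, the mitochondrial Hsp90, fell by 0.12 averaged over the dams (SE 0.0400, adjusted p = 0.0481), with a median of 769 (LF_LF), 715 (LF_HF), 756 (HF_LF) and 668 (HF_HF).

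Of the 4 Hsp90 cochaperones, 2 rose in the averaged comparison and 2 in offspring of LF dams, and their averaged median was 0.13. Ahsa1, which speeds up the ATPase of Hsp90, passed in both: medians of 505 and 567 in LF_LF and LF_HF hearts gave 0.19 (SE 0.0513, adjusted p = 0.0494), and the averaged difference was 0.13 (SE 0.0373, adjusted p = 0.0213). Stip1 (Hop), which links Hsp70 to Hsp90, passed in offspring of LF dams (0.21, SE 0.0569, adjusted p = 0.0479), with 7 of 10 LF_HF hearts above every LF_LF heart, and differed by 0.03 in offspring of HF dams. Within cages holding both diets Stip1 was at 0.23 and 0.22, and neither passed alone (adjusted p = 0.217 and 0.405). Fkbp4, the immunophilin of steroid receptor complexes, passed in the averaged comparison (0.16, SE 0.0409, adjusted p = 0.0137). Chordc1 was at 0.14 and did not pass. The calls of Hspb1, Stip1 and Ahsa1 in offspring of LF dams lay close to the threshold and were lost when any of 10, 14 and 16 of the 20 hearts, respectively, was left out. The calls of Hsph1 and Dnaja4 were lost for 0 of the 20. With 1 cage left out the call of Stip1 was lost for 5 of the 6 cages (limma, adjusted p up to 0.242). That of Ahsa1 was lost for 6 of the 6 (adjusted p up to 0.220).

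Chaperonins enclose a protein in a barrel while it folds. Hspd1 (Hsp60) and Hspe1 (Hsp10) form the mitochondrial barrel and its lid. Hspd1 ran from 2526 over a median of 3541 to 4845 in LF_LF hearts, from 3635 over 4679 to 5898 in LF_HF hearts, from 2899.5 over 3763 to 4585 in HF_LF hearts and from 3484 over 4273 to 5331 in HF_HF hearts. The HF-fed hearts were shifted up within a shared range, and the averaged log2 fold change was 0.28 (SE 0.0686, adjusted p = 0.00881), with 0.36 in offspring of LF dams (SE 0.102, adjusted p = 0.0572) and 0.19 in those of HF dams (SE 0.0854, adjusted p = 0.528). A second Hspd1 probe differed by 0.15 and followed the first only weakly from heart to heart (r = 0.12). Hspe1 had medians of 1413 (LF_LF), 2119 (LF_HF), 1588 (HF_LF) and 1646 (HF_HF), and did not pass (0.32 averaged, SE 0.110, adjusted p = 0.0681). Both genes have many processed pseudogenes, which the probes may not tell apart from them. The 4 tested subunits of the cytosolic TRiC barrel, Cct2, Cct3, Cct5 and Tcp1, lay between 0.06 and 0.30 and did not pass. Hsf2, the heat shock factor with a probe, was at 0.16 averaged (adjusted p = 0.195).

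The diet of the dam was followed by no call of a chaperone gene. Among LF-fed offspring 0 of the 39 genes passed, while 0.0395% of all probes did. The median was -0.01, and 0 genes were higher and 1 lower at an unadjusted p below 0.05, against 2.05% and 1.97% of all probes. The 4 smallest p belonged to Hspb3 (-0.17, SE 0.0633), Hspb8 (-0.17), Hspb6 (-0.09) and Dnaja3 (-0.10), each with an adjusted p of 0.996. Among HF-fed offspring 0 of the 39 genes passed, as did 0% of all probes. Yet 34 of the 39 genes lay below 0 there, with a median of -0.10 against -0.0013 over all probes. At an unadjusted p below 0.05, 0 were higher and 11 lower, against 6.76% and 4.54% of all probes. The smallest p belonged to Dnaja4 (-0.19, SE 0.0600, adjusted p = 0.281), followed by Hspb3 (-0.19, adjusted p = 0.291), Hspe1 (-0.32, SE 0.128, adjusted p = 0.354) and Dnaja3 (-0.10, adjusted p = 0.377), a mitochondrial J-domain protein. The LF_HF hearts are common to this comparison and to that of the post-weaning diet in offspring of LF dams. Atrial markers lay higher with HF dams in the same hearts, with a median log2 fold change of 1.36 among the LF-fed and 1.29 among the HF-fed. None of them passed in either comparison (adjusted p = 0.357 or more).

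Averaged over the offspring's diets, 0 of the 39 genes passed for the diet of the dam, and 0.388% of all probes did. Their median was -0.04, and 0 were higher and 6 lower at an unadjusted p below 0.05, against 5.6% and 4.29% of all probes. Hspb3, a small heat shock protein of muscle, came closest. Its median was 382 (LF_LF), 399.8 (LF_HF), 331 (HF_LF) and 357 (HF_HF), so that 19 of the 20 offspring of HF dams lay below the median of the offspring of LF dams, and the log2 fold change was -0.18 (SE 0.0445, adjusted p = 0.0567). Hspb8 (-0.17, adjusted p = 0.237), Dnaja3 (-0.10, adjusted p = 0.285) and Bag3 (-0.10, adjusted p = 0.396) followed.

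For the interaction of the diets 0 of the 39 genes and 0% of all probes passed, and at an unadjusted p below 0.05, 0 genes were higher and 1 lower, against 1.99% and 1.42% of all probes. Of the 39 genes 29 lay below 0, with a median of -0.06. After Dnaja4 the smallest p belonged to Dnaja2 (-0.27), Stip1 (-0.18) and Dnajb2 (0.24), all with an adjusted p of 0.943. The larger count of calls in offspring of LF dams was therefore not matched by a difference between the dam groups that passed a test.

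The mean over the 39 genes gives each heart a single level, in log2 units from the 40-heart median. It ran from -0.17 over a median of -0.07 to 0.12 in LF_LF hearts and from 0.02 over 0.11 to 0.21 in LF_HF hearts. In HF_LF hearts it ran from -0.16 over -0.08 to 0.03, and in HF_HF hearts from -0.08 over 0.02 to 0.20. The LF_HF hearts were all above 0, and the other groups held hearts on both sides. LF_HF animal 207 (0.21) and HF_HF animal 122 (0.20) were the highest, and LF_LF animal 101 (-0.17), a heart with liver signal, was the lowest.

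**Figure D3:**
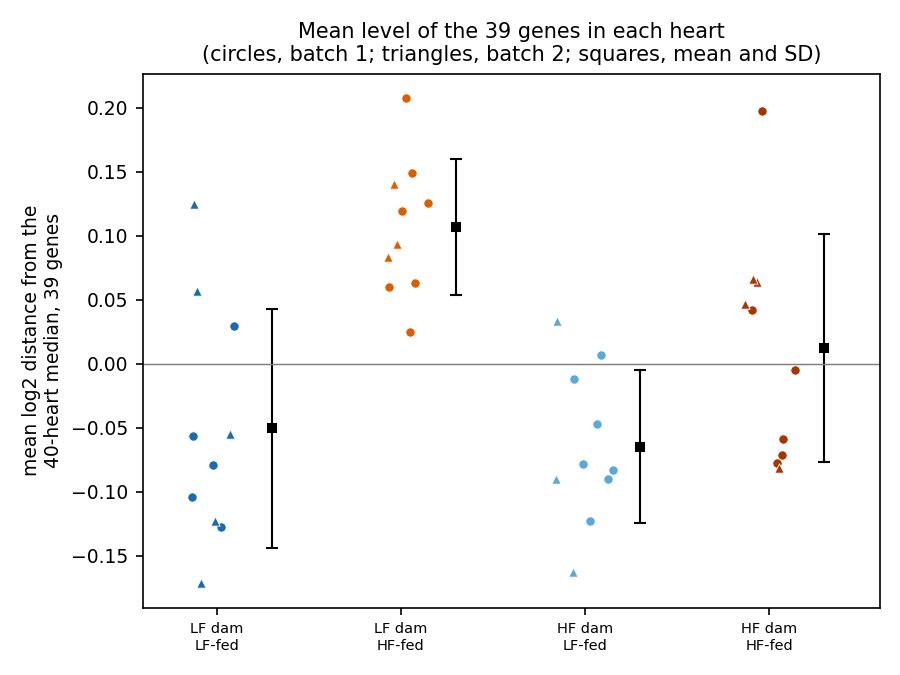
Mean log2 distance from the 40-heart median over the 39 tested genes (y axis) for each heart, by group (x axis). All LF_HF hearts lie between 0.02 and 0.21, and the other 3 groups reach below 0.

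The genes did not move as 1 block from heart to heart. After the group means were removed, the 741 pairs of the 39 genes had a median correlation of 0.10, from -0.84 to 0.91, and the 15 pairs of chaperonins a median of 0.51. These describe probes of the same 40 arrays, which share batch and tissue makeup. For 8 pairs named in the plan and 5 pairs added after values had been seen, correlations were tested by two-sided permutation within the groups and adjusted over the 13 pairs. The permutations treated hearts of the same cage as independent, and no correlation was tested with cage taken into account.

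Hspd1 and Hspe1, which share the stretch of repeats printed above, varied together (r = 0.89, rho = 0.91, n = 40, permutation p = 1e-05 for each, adjusted p = 0.00013). No smaller p could come out of the 100000 permutations. This held without the 2 hearts farthest from the median of Hspd1 (r = 0.88) and within batch 1 (r = 0.84) and batch 2 (r = 0.96). The value belongs to the Hspd1 probe used, which the second Hspd1 probe followed only weakly (r = 0.12). Pairs of genes from different classes reached 0.91 as well. The part of the shared stretch in the correlation was not tested. The heat-inducible pair Hspa1a and Dnajb1 also varied together (r = 0.65, rho = 0.56, permutation p = 5e-05 and 0.00037, adjusted p = 0.000217 and 0.00208). Both were high in LF_HF animals 97 and 99, which came from the same cage (cage 4), at 142.9 and 140.4 for Hspa1a and 663 and 695 for Dnajb1. The r was 0.50 without the 2 hearts farthest from the median of Hspa1a, 0.73 within batch 1 and 0.50 within batch 2, where the permutation test did not pass (adjusted p = 0.227). Hspa1a and Hspa8 had r = 0.45 and rho = 0.41 (permutation p = 0.00145 and 0.00825, adjusted p = 0.00452 and 0.0214). Without the 2 farthest hearts r was 0.47, while rho fell to 0.38 and did not pass (permutation, adjusted p = 0.0577). The r was 0.43 within batch 1 and 0.46 within batch 2. Neither batch alone passed (permutation, adjusted p = 0.0617 and 0.315).

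A correlation of Hspa1a with Hsph1 was not detectable (r = 0.09, rho = 0.10, permutation p = 0.61 and 0.552, adjusted p = 0.661 and 0.676). Its r was 0.11 with Hsp90aa1, 0.17 with Hspb1, -0.14 with Cryab and 0.02 with Hspd1, with adjusted permutation p of 0.517 to 0.899. Hsph1 varied with Hspb1 (r = 0.46, rho = 0.41, permutation p = 0.00482 and 0.0113, adjusted p = 0.0104 and 0.0245), a pair added after the values were seen. Without the 2 hearts farthest from the median of Hsph1 r was 0.39 (permutation, adjusted p = 0.0452) and rho was 0.30, which did not pass (permutation, adjusted p = 0.159). The r was 0.41 within batch 1 (adjusted p = 0.144) and 0.84 within batch 2. For Hsph1 with Hspd1 the r was 0.11 and with Hspa8 0.31 (permutation, adjusted p = 0.626 and 0.124). Of all 38 other tested genes Ahsa1 had the highest correlation with Hsph1 (0.65), followed by Chordc1 (0.50).

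**Figure D4:**
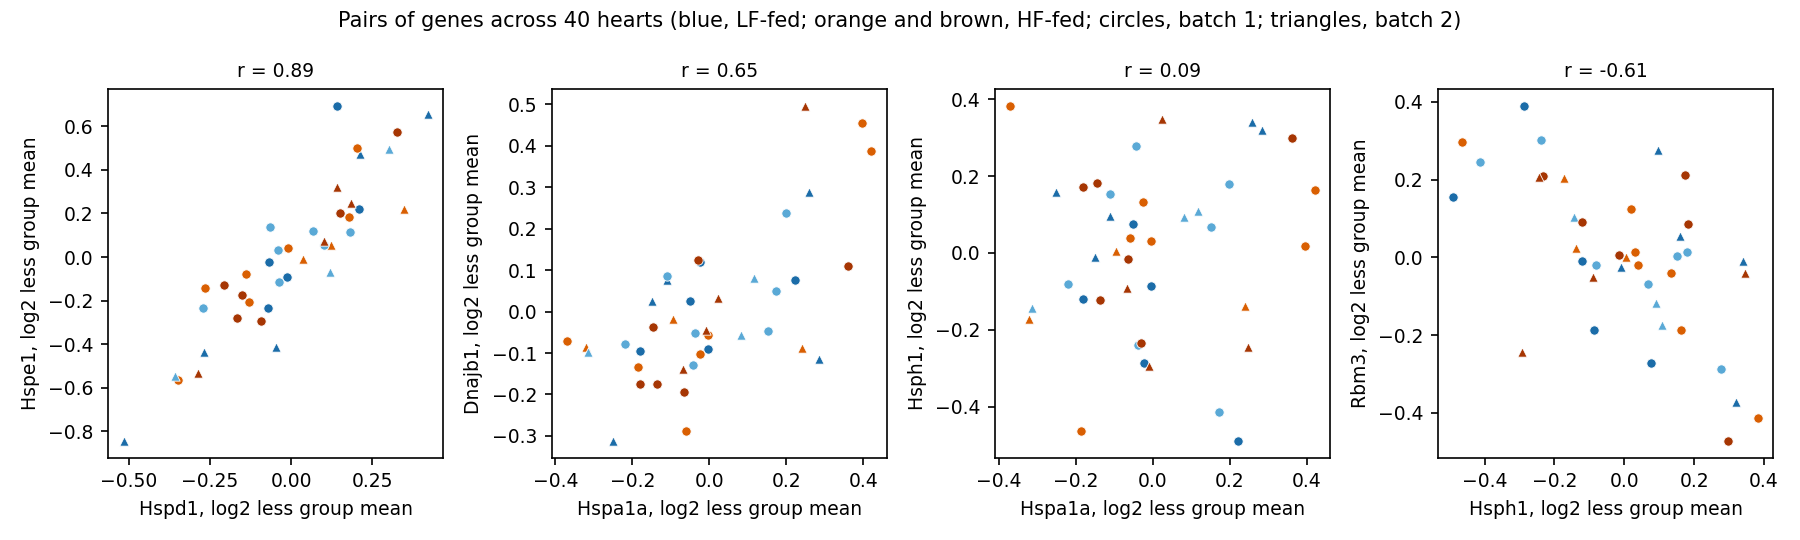
Log2 intensity less the group mean for 4 pairs of genes, each point 1 of 40 hearts, coloured by group. Hspd1 with Hspe1 (r = 0.89) and Hspa1a with Dnajb1 (r = 0.65) rise together, Hspa1a with Hsph1 has an r of 0.09, and Rbm3 falls as Hsph1 rises (r = -0.61).

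The genes known for induction by cold moved the other way. Rbm3 ran from 499 over a median of 641 to 846 in LF_LF hearts and from 312 over 417 to 509.9 in LF_HF hearts, and from 541 over 656 to 814 in HF_LF hearts and from 342 over 489.5 to 549 in HF_HF hearts. The HF-fed hearts lay lower with either dam. These values are of the brightest of 3 Rbm3 probes, and the other probes were not compared with it. The log2 fold change of Rbm3 was -0.64 (SE 0.0920, adjusted p = 0.00112) in offspring of LF dams, -0.48 (SE 0.0854, adjusted p = 0.00567) in offspring of HF dams and -0.56 (SE 0.0644, adjusted p = 1.63e-07) averaged. Cirbp fell as well, by 0.36 (log2) in offspring of LF dams (SE 0.0947, adjusted p = 0.0419) and by 0.30 averaged (SE 0.0717, adjusted p = 0.00640), and was at -0.24 in offspring of HF dams (adjusted p = 0.496). For Rbm3 the averaged call held on cage means (adjusted p = 0.000705), without the hearts with other-tissue signal (adjusted p = 0.000709) and within cages holding both diets (-0.57, adjusted p = 0.000919), but not within batch 2 (-0.50, adjusted p = 0.107). Both pairwise calls of Rbm3 were lost on cage means (adjusted p = 0.113 and 0.0562), without those hearts (adjusted p = 0.0900 and 0.208) and within cages (adjusted p = 0.171 and 0.0581). The call of Cirbp in offspring of LF dams was lost with all probes tested (adjusted p = 0.0766), with a batch term (0.0628), on cage means (0.215), within batch 2 (0.810), without those hearts (0.117) and within cages (0.196). Its averaged call was lost on cage means (adjusted p = 0.0815), without those hearts (0.0567) and within batch 2 (0.630), while within cages the averaged difference was -0.45 (adjusted p = 0.00210).

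Rbm3 and Hsph1 also opposed each other among the hearts of a group (r = -0.61, rho = -0.55, permutation p = 5e-05 and 0.00048, adjusted p = 0.000217 and 0.00208). For Cirbp and Hsph1 the values were r = -0.50 and rho = -0.52 (permutation p = 0.00174 and 0.00112, adjusted p = 0.00452 and 0.00364). Both pairs were added after the values had been seen. Without the 2 hearts farthest from the median of Hsph1 the r were -0.54 and -0.49. Within batch 1 the r were -0.78 and -0.60, and within batch 2 they were -0.32 and -0.35, where neither permutation test passed (adjusted p = 0.38 for each).

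Other chaperones were counted beside the list. Of 30 tested of 35 further chaperones and cochaperones, 1 rose in offspring of LF dams and 0 in offspring of HF dams. Both counts lie near the shares of all probes that rose, 1.29% and 0.482%. The 1 gene was St13 (Hip), which steadies Hsp70 on its substrate (0.44, SE 0.118, adjusted p = 0.0470). In offspring of HF dams the smallest p belonged to Unc45b (0.12) and Tomm70a (0.23). Averaged over the dams 3 of the 30 rose, against 3.53% of all probes. They were Unc45b, the myosin chaperone (0.18, SE 0.0415, adjusted p = 0.00577), Tomm70a, the mitochondrial import receptor that docks Hsp70 and Hsp90 (0.32, SE 0.0868, adjusted p = 0.0161), and Ppid (0.15, adjusted p = 0.0480). Without the hearts with other-tissue signal these 3 calls and that of St13 were lost (adjusted p = 0.0838, 0.0926, 0.272 and 0.282 in the same order). For the diet of the dam and for the interaction 0 of the 30 passed, against at most 0.388% of all probes. Smallest in p were Pfdn4 (-0.13) and Cdc37 (0.07) in LF-fed offspring, and Hspa12a (-0.17) and Unc45b (-0.11) in HF-fed offspring. Averaged they were Pfdn4 (-0.12) and Grpel1 (-0.09), and for the interaction Hspa12a (-0.20) and Cct6a (-0.14).

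Of 12 tested of 15 chaperones and stress genes of the endoplasmic reticulum, Serpinh1, the collagen chaperone Hsp47, rose with the HF diet in offspring of LF dams (0.32, SE 0.0760, adjusted p = 0.0288) and averaged (0.19, SE 0.0546, adjusted p = 0.0250), and was lower in offspring of HF dams than of LF dams averaged over their diets (-0.23, adjusted p = 0.0449). Herpud1, which takes part in degradation at the endoplasmic reticulum, went the opposite way in both averaged comparisons: it fell with the HF diet of the offspring (-0.21, SE 0.0632, adjusted p = 0.0293) and was higher with HF dams (0.33, SE 0.0632, adjusted p = 0.00505). Of all probes 1.29% rose with the HF diet in offspring of LF dams, and 3.53% rose and 3.96% fell averaged. For the diet of the dam averaged over the offspring's diets 0.388% passed. For Herpud1 and Serpinh1 the comparisons of the dams within 1 diet did not pass (adjusted p = 0.0899 or more). Both averaged calls for the diet of the dam were lost on cage means (adjusted p = 0.326 for Herpud1 and 0.207 for Serpinh1) and without the hearts with other-tissue signal (adjusted p = 0.299 and 0.372). For the diet of the offspring the averaged call of Serpinh1 held on cage means (adjusted p = 0.0302) and that of Herpud1 did not (adjusted p = 0.323), and neither held without those hearts (adjusted p = 0.123 and 0.118). Of 9 tested of 15 immediate early genes, which answer to handling and acute stress, 0 passed in any comparison. The rest of the 15 were too dim or had no probe. The largest share of all probes to pass was 3.53% higher and 3.96% lower, for the averaged post-weaning diet, and 0 of 9 lies near it. The part of handling in the results was not tested. Those with the smallest p were Gadd45g (-0.26, adjusted p = 0.0852) and Dusp1 (-0.17) for the post-weaning diet in offspring of LF dams, and Egr1 (0.55, adjusted p = 0.332) and Junb (0.18) in those of HF dams.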

How the data were processed

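RNA of each heart was hybridised to 1 Illumina MouseRef-8 array. The deposited table held intensity values of 25697 probes without log transformation, scanned into BeadStudio by the authors (no version is named in the sources used here). They had then quantile-normalised all 40 arrays, with no background subtraction. The values spanned 47.5 to 31454.1. How far a dim probe stood above background is unknown, as detection p-values were left aside, and the number of arrays limits the precision.

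All values were used as log2. Tests were run on the 12645 probes brighter than the array median on 20 or more of the 40 arrays. Probes were named through Entrez identifiers with the RefSeq genes of GRCm38.p6 (23978 with 1 symbol, 1719 with none, 0 with several). Fold changes (HF over LF) were fitted under R 4.3.3 by limma 3.58.1, with eBayes and a mean-variance trend, each pairwise comparison on its own 20 arrays and the interaction and averaged effects on all 40, with Benjamini-Hochberg adjustment over all tested probes and a threshold of 0.05. Correlations were tested with 100000 permutations within groups (NumPy 2.4.6, Python 3.11.15). The fits were tested on simulated data. Alternatives changed the filter, background, normalization, probe, variance model, batch, cage, tissue makeup and single animals or cages, and a fit within cages that held both diets was added after values had been seen.

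The members and the gene lists were chosen with earlier results of these data known. Named are, in each comparison, the members that passed or the 4 with the smallest p, and whatever their result Hspa1a, Hspa1b, Hsph1, Dnajb1, Hsp90aa1, Hsp90ab1, Hspa8, Hspb1, Cryab, Hspd1, Hspe1 and Hsf1, and of other lists the genes that passed or the 2 with the smallest p. Other names were chosen after their values were seen. A batch was read from the first component (16.4% of variance) of the dim probes.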

Additional observations from a re-analysis of the deposited data

Results flagged for a closer look

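Among the 156 groups of 10 hearts for the 39 tested genes, 9 held a heart whose distance from the nearest other heart, as a share of the range of the group, passed the 95% limit of Dixon's test. Chance gives such a heart in about 1 of 20 groups. LF_HF animal 207, the heart with the highest mean chaperone level, stood out in 2 genes: Hspa4l at an intensity of 158.4 (group median 119, next heart 129.9) and Cct3 at 1180.3 (median 998, next 1030.3). HF_HF animal 122, the next highest heart, had Tcp1 at 2547.9 (median 1678, next 1829). HF_HF animal 124 had Dnajb1 at 703.7 (median 485, next 544), and LF_HF animal 209 had Dnajb6 at 532.6 (median 450, next 459). HF_LF animal 109 had Cryab at 7733 (median 6337, next 6866). HF_LF animal 54, a heart with pancreas signal, had Hsp90aa1 at 160.6 (median 92.7, next 100.1). On the low side, LF_HF animal 99 had Hspa4 at 132.4 (median 175, next 162) and LF_LF animal 101, a heart with liver signal, had Dnajc5 at 492 (median 589, next 562).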

How the results depend on the processing

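By replicate number no paired analysis was possible because the numbers follow the order of the accessions and tie no animal to another. The cage labels do tie sons of the same cage: 5 cages held sons on both diets, and a fit with cage as a fixed term over those cages was added after the data had been seen. It called 0 genes for the post-weaning diet in offspring of LF dams (10 hearts), 0 in those of HF dams (13 hearts, median 0.13) and 3 averaged over the dams, 1 of them (Hsph1) among the 13. Of all tested probes it called 5 higher and 1 lower in offspring of LF dams, and 14 and 2 in those of HF dams. The diet of the dam cannot be compared within a cage. Besides this fit and runs that leave out an animal or a cage, 15 alternatives were run for each pairwise comparison and 14 for each of the others. No run turned the sign of a gene called in the main comparisons. The median over the 39 genes turned for the diet of the dam in LF-fed offspring with the atrial score in the model (0.01), without animal 211 (0.001) and without cage 11 (0.01), and for the interaction within batch 2 (0.004). Within batch 1 the correlation of Hspa1a turned with Hsph1 (r = -0.02) and with Hspd1 (r = -0.22), which had not passed. For the post-weaning diet in offspring of LF dams the 5 called genes became 2 with all probes tested, 9 with the stricter filter, 2 with array weights, 3 with a batch term, 2 in batch 1 and 0 in batch 2, 3 with cage as a random block, 0 with cage means, 12 with the atrial score in the model and 0 when hearts with other-tissue signal were dropped. Calls over all probes, 163 higher and 181 lower, moved too. They became 74 and 72 with all probes tested, 224 and 215 with the stricter filter and 129 and 141 with array weights. With a batch term they were 136 and 138, in batch 1 41 and 22, and in batch 2 0 and 0. Cage as a random block gave 130 and 144, cage means 4 and 0, and the atrial score 314 and 437. Without the hearts with other-tissue signal 6 and 2 were left. In offspring of HF dams the 2 called genes became 0 within batch 1, 0 within batch 2, 0 with cage means and 1 without those hearts. Over all probes 61 higher and 48 lower became 10 and 12, 1 and 0, 11 and 8, and 17 and 7 in the same order. Averaged over the dams the 13 called genes became 0 within batch 2, 6 with cage means and 2 without those hearts. For the averaged comparison the calls over all probes in these fits are not given here. For the diet of the dam averaged over the offspring's diets the 0 became 1 with the stricter filter (Hspb3, adjusted p = 0.045) and 1 with array weights (Hspb8, adjusted p = 0.0383). Within a batch, with cage means and without hearts, fewer arrays were fitted. The cause of the other changes was not tested.

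Single animals and cages were left out in the pairwise comparisons only, and the averaged calls were not tested in this way. Leaving out 1 animal gave 2 to 12 called genes in offspring of LF dams (2 without animal 14, 97, 100, 134, 199, 201, 207, 209 or 210, 8 without 102 or 133, 12 without 15 or 211) with a median of 0.14 to 0.17, and 2 to 2 in offspring of HF dams with a median of 0.03 to 0.07. For the diet of the dam it gave 0 to 0 in LF-fed offspring (median -0.03 to 0.001) and 0 to 0 in HF-fed offspring (median -0.11 to -0.08). Leaving out 1 cage gave 0 to 4 (0 without cage 4 or 11; median 0.13 to 0.18), 0 to 2 (0 without cage 21; median 0.04 to 0.08), 0 to 0 (median -0.03 to 0.01) and 0 to 1 (Dnaja4 at -0.28, adjusted p = 0.0342, without cage 23; median -0.11 to -0.07) in the same order.

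Pearson correlations that changed sides of the threshold were, within batch 2, Hspa1a with Dnajb1 (r = 0.50), Hspa1a with Hspa8 (0.46), Hsph1 with Cirbp (-0.35) and Hsph1 with Rbm3 (-0.32), within batch 1, Hspa1a with Hspa8 (0.43) and Hsph1 with Hspb1 (0.41), and, without the hearts with other-tissue signal, Hsph1 with Hspa8 (0.48, adjusted p = 0.0241). Spearman's rho changed sides for the same pairs in the same settings and also, without the 2 hearts farthest from the median, for Hsph1 with Hspb1 (rho = 0.30) and Hspa1a with Hspa8 (rho = 0.38). The permutation tests within batch 2 rested on 15 hearts.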
